A study of Homo sapiens with 8 samples.

Results

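The genes described here encode the proteins of the cytosolic ribosome. They were chosen by name: entries of the gene table called RPL or RPS followed by a number, with an optional A or X, together with RPLP0, RPLP1, RPLP2 and RPSA. This gave 77 genes of the 58302 entries in the table, 46 for the large subunit (stalk proteins included) and 31 for the small subunit, and all 77 passed the filter on low counts. RNA with a poly(A) tail was sequenced from undifferentiated human pluripotent stem cells that were untreated, grown without feeders in mTeSR1 medium and lysed in small pools of 100 to 1000 cells. From the induced pluripotent line WTC11 came 2 control libraries (1 each for guide RNA 1 and 2 of KIF3B) and 3 libraries labelled KIF3B-/- (2 with guide 1 and 1 with guide 2). From the embryonic stem cell line WA09 came 2 control libraries and 1 library labelled KIF3A-/-, all for guide 1 of KIF3A, so that the KIF3A-/- values have no replicate. KIF3A and KIF3B are the motor subunits of kinesin-2, which carries cargo along the primary cilium, and the series compares knockout clones with isogenic controls. The labels do not tie each library to a clone or culture of its own, so p-values measure only how these libraries vary, and that variation may be technical.

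Each cytosolic ribosome holds a small subunit, which reads the mRNA, and a large subunit, which joins amino acids, and each subunit is built from ribosomal RNA and many small basic proteins. Most of the proteins are needed in equal numbers, with more copies of the stalk proteins RPLP1 and RPLP2, and their mRNAs are among the most abundant and most evenly expressed in growing cells. Most of these mRNAs start with a C followed by a run of pyrimidines, the 5' terminal oligopyrimidine (TOP) tract, through which their translation responds to mTOR signalling by way of LARP1. Pluripotent stem cells grow and divide fast and express the whole set.

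To show what most of these mRNAs have in common at their 5' end, 30 bases around the annotated start are printed for 11 of the genes whose values are given below: 12 bases before the start and 18 from it, read 5' to 3' on the strand of the gene, from RefSeq promoter windows on GRCh38.p14. Capitals mark the unbroken run of C and T that begins at the start with a C.
RPS24, chr10:78033851-78033880, plus strand: cgaatcgtggttCTCTTTTCCTCCTTggct
RPS19, chr19:41860243-41860272, plus strand: aaccccgtcgttCCCTTTCCCCTggctggc
RPS14, chr5:150449722-150449751, minus strand: ccccctcccactCTCTCTTTCCggtgtgga
RPS3A, chr4:151099616-151099645, plus strand: ctcccacttccgCCCTTTTggctctctgac
RPSA, chr3:39406708-39406737, plus strand: cctgccgcctgtCTTTTCCgtgctacctgc
RPLP0, chr12:120201094-120201123, minus strand: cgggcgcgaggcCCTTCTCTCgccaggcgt
RPLP1, chr15:69452806-69452835, plus strand: taggcgcgagagCCCCTTTCCTCagctgcc
RPLP2, chr11:809955-809984, plus strand: cgtcggcgccttCCTTTTCCTCCCTgtcgc
RPL11, chr1:23691794-23691823, plus strand: aagctccgctttCTCTTCCTgctctccatc
RPL39, chrX:119791613-119791642, minus strand: ttccgccagcttCCCTCCTCTTCCTTTCTC
RPS28, chr19:8321484-8321513, plus strand: ccgaagcacgtgactcctctccgccagacc
RPL39 had the longest run of the set, 19 bases, and the annotated start of RPS28 had none. Windows were used for 62 of the 77 genes. A C at an annotated start followed by a run of at least 5 pyrimidines, the C included, was found for 46 of the 62 genes (74.19%), against 5.142% of the 27305 genes with a window. The median run of these 46 genes was 8 bases. The windows, 250 bases before to 50 bases after each start, were also searched on both strands for promoter motifs. AAGATGGC, the core bound by YY1, was in the windows of 9.677% of the ribosomal protein genes and of 3.523% of all genes. CCGGAAG, a site of ETS factors whose last letters can overlap AAGATGGC, was in 35.48% against 12.16%. A match describes these letters only and is not a measured site.

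Library totals ran from 2161890 to 2875163 counts, and a count of 0 still allows up to 3 counts by counting error alone, or at most 1.39 CPM (counts scaled to a common library total). KIF3A counts were 132 and 103 in the WTC11 controls, 136, 92 and 132 in the libraries labelled KIF3B-/-, 174 and 167 in the WA09 controls and 75 in the library labelled KIF3A-/-. KIF3B counts were 71 and 59 in the WTC11 controls, 129, 86 and 107 in the libraries labelled KIF3B-/-, 116 and 65 in the WA09 controls and 81 in the KIF3A-/- library. KIF3A RNA was thus lowest in its own knockout, whereas KIF3B RNA was not lower in the libraries labelled KIF3B-/- than in their controls, and every direction given for them rests on that label. All 10 pluripotency markers were detected in every library, with a summed level of 3728 to 5378 CPM. Of the markers of other cells, SOX17, SOX1, CDX2, TFAP2A, HAND1, DCN and LUM had 0 counts in every library. The mesoderm, endoderm and trophectoderm lists summed to at most 49.9 CPM in a library. The neuroectoderm list, led by OTX2 and NES, was at 214.6 to 296.1 CPM in the libraries labelled KIF3B-/- and at 95.8 to 179.7 CPM in the other 5, and its part in the results below was not tested. The fibroblast list, mostly THY1, COL1A2 and COL1A1, summed to 497 to 788 CPM, but 3 of its 4 tested genes were higher in every library labelled KIF3B-/- than in both WTC11 controls, beside the lower ribosomal protein genes described below. COL1A1 had 21.1 and 21.3 CPM in these controls against 37.0, 124 and 34.1, COL1A2 had 118 and 135 against 165, 312 and 159, and THY1 was lower, with 422 and 437 against 362, 344 and 297. Their part in the results was not tested.

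Levels of single genes were compared per kilobase of the median coding transcript in GENCODE 29, averaged over the 8 libraries. RPS19, the small subunit protein most often mutated in Diamond-Blackfan anaemia, was highest at 590.0 CPM per kb. RPL15 followed at 499 CPM per kb, then RPL8, which lies near the peptidyl transferase centre, at 481, RPS14, whose loss underlies the anaemia of 5q- syndrome, at 479.9, and RPL27 at 473. At the other end stood RPS28 at 3.36 CPM per kb, RPS10 at 5.59, RPL36A at 8.54, RPL7 at 13.7 and RPS26 at 25.7. The low genes were low throughout: neither RPS28 nor RPS10 passed 21 counts in a library. RPS28 had 6 and 4 counts in the WTC11 controls, 18, 8 and 21 in the libraries labelled KIF3B-/-, 10 and 12 in the WA09 controls and 11 in the KIF3A-/- library. RPS10 had 10 and 10, then 14, 7 and 12, then 6 and 7, and 6 counts in the same order.

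Ribosomal protein genes have many processed pseudogenes, which resemble the mRNA, and how reads matching several places were counted is not given in the sources used here. By name, 1117 entries of the table were pseudogenes of these genes. The most belonged to RPL23A (91), RPSA (74), RPL21 (67) and RPL7 (61), and 1 gene had none. Across the 77 genes, Spearman's rho between the number of such entries and the level per kilobase was -0.50, as a description of genes in the same libraries. The 15 genes with 20 or more entries had a median of 97.6 CPM per kb, and the other 62 genes a median of 242. All pseudogene entries together held 1.87 to 2.55 counts for every 100 counts of the ribosomal protein genes. RPS10, RPL36A and RPL17 also share exons with read-through entries (RPS10-NUDT3, RPL36A-HNRNPH2 and RPL17-C18orf32), which were listed at 0 in all libraries. The levels of genes with many copies, and of these 3, are uncertain for this reason, and the part of read assignment in them was not tested.

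**Figure D1:**
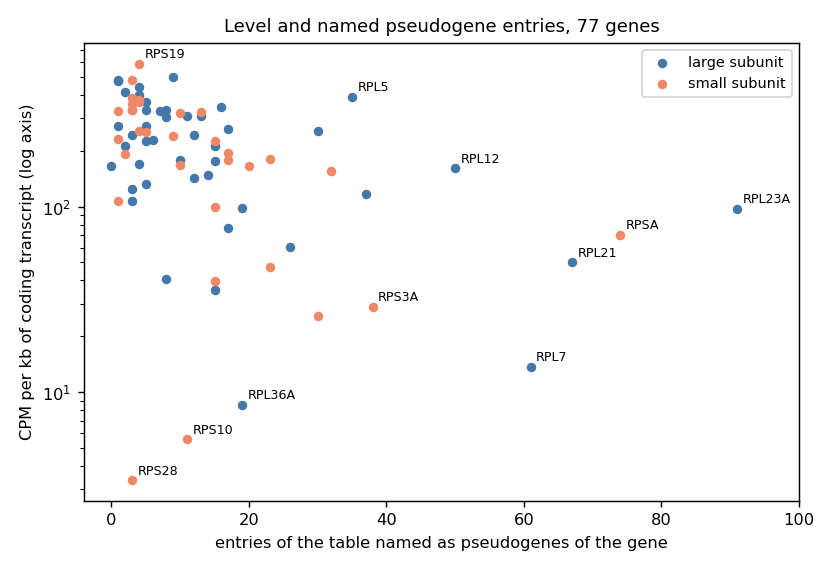
Each point is 1 of the 77 genes; the x axis gives the number of table entries named as its pseudogenes and the y axis its mean CPM per kb of coding transcript on a log axis. RPS19 is highest at 590.0 CPM per kb with few such entries, RPL23A, RPSA, RPL21 and RPL7 lie far to the right, and RPS28 (3 entries), RPS10 (11) and RPL36A (19) have the lowest levels.

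Summed over the 77 genes, read counts differed less between libraries than the library totals did. The sums were 30565 and 30004 in the WTC11 controls, 29431, 26301 and 27806 in the libraries labelled KIF3B-/-, 29788 and 31768 in the WA09 controls and 28762 in the KIF3A-/- library. The libraries labelled KIF3B-/- were all below both WTC11 controls, and the KIF3A-/- library was below both WA09 controls. The highest sum was 1.21 times the lowest, while the highest library total was 1.33 times the lowest. The totals were 2161890 and 2234379, then 2632475, 2387357 and 2875163, then 2559733 and 2605256, and 2236845 in the same order. As a share of the total, the genes took 1.41% and 1.34% of the WTC11 control counts, 1.12%, 1.10% and 0.967% in the libraries labelled KIF3B-/-, 1.16% and 1.22% in the WA09 controls and 1.29% in the KIF3A-/- library. The 3 libraries with the smallest totals had the 3 highest shares, and the library with the largest total had the lowest. The order did not hold throughout. The second library labelled KIF3B-/- had a smaller total than both WA09 controls (2387357 against 2559733 and 2605256) and also a lower share (1.10% against 1.16% and 1.22%).

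In CPM scaled by the trimmed mean of M-values (TMM), the sums were 14009.8 and 13597.6 in the WTC11 controls and 11240.2, 11424.9 and 9991.2 in the libraries labelled KIF3B-/-. The WA09 controls had 11689.3 and 11755.6 and the KIF3A-/- library 12685.5. The libraries labelled KIF3B-/- were all below both of their controls, and the KIF3A-/- library was above both of its own. The highest sum was 1.40 times the lowest, a wider range than that of the counts. Among single genes, the coefficient of variation over the 8 libraries was smaller for counts than for CPM in 69 of 77, with medians of 8.89% and 13.0%. RPLP0, the stalk protein often used as a reference gene, shows this: its counts ran from 537 to 580 and its CPM from 193 to 263. The counts of the large subunit genes were 1.57 to 1.62 times those of the small subunit genes in every library, so both subunits varied together.

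**Figure D2:**
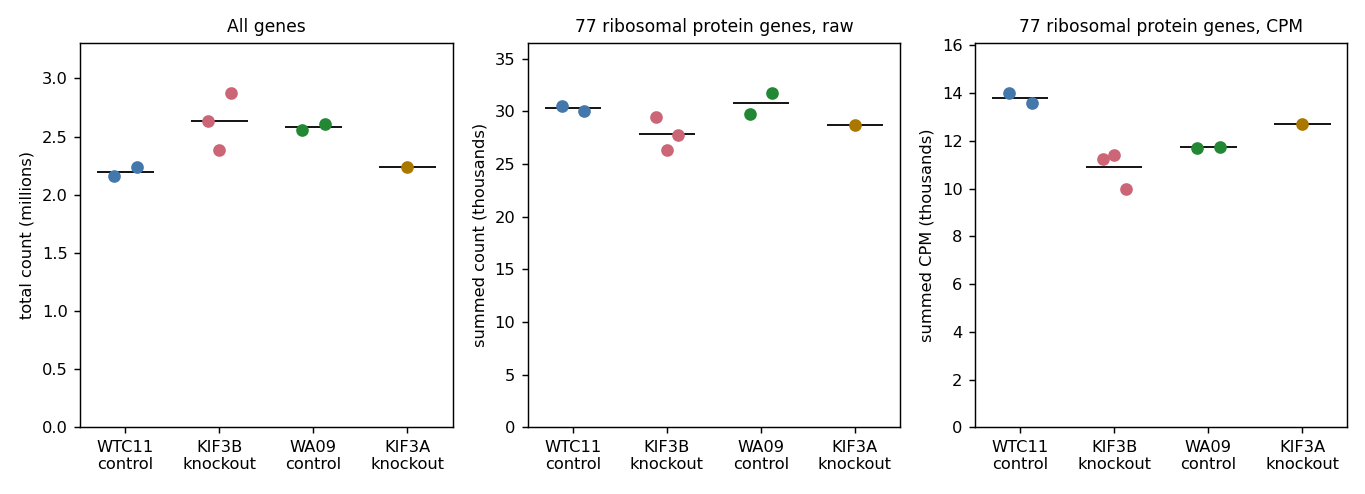
Points are libraries and lines are group means; the panels give the total count, the summed count of the 77 genes and their summed CPM, each axis from 0. The summed counts stay between 26301 and 31768, and the summed CPM is highest in the WTC11 controls, whose totals are the smallest.

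Many of these genes had high counts for their length. The mean count divided by the median coding length had a median of 0.546 over the 77 genes, against 0.0482 over all tested genes with a coding length. It was above 0.5 in 41 of the 77 genes and in 829 of 13022 tested genes, and above 1 in RPL15, RPL27, RPL37A, RPL8, RPLP1, RPS14 and RPS19, with a highest value of 1.43. Between replicate libraries of 1 group, the proportions among the 77 genes differed by about as much as sampling allows. The chi-square per degree of freedom was 0.696 to 1.38 in 5 pairs. Over all genes the same pairs gave 6.11 to 8.84, so no pair looked like 1 library deposited again. Between libraries of different groups the 77 genes gave 0.708 to 3.16 in 23 pairs. A shift common to all 77 genes hardly enters this value. It was 0.97 between the first WTC11 control and the first library labelled KIF3B-/-, whose summed CPM were 14009.8 and 11240.2. Across the 77 genes, Spearman's rho between count per base and the log2 fold change described below was -0.11 in the KIF3B-/- comparison. It was 0.16 in the KIF3A-/- comparison, both as descriptions of genes that share libraries. Whether counts of these genes level off with depth, which would lower their CPM in libraries with a larger total, was not tested.

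The libraries labelled KIF3B-/- had lower CPM of nearly all ribosomal protein genes than the WTC11 controls. The log2 fold change was below 0 in 75 of the 77 genes, where 48.2% of all 14216 tested genes were below 0, and its median was -0.35, against 0.026 over all tested genes. Large and small subunit genes had medians of -0.36 and -0.33. In 68 of the 77 genes every library labelled KIF3B-/- was below both controls, against 18% of tested genes, and in 1 gene, RPS28, every one was above, against 16.5%. Fewer cells of a type and less RNA per cell cannot be told apart in such pools.

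With edgeR's quasi-likelihood test, 0 of the 77 genes and 0% of all tested genes passed an adjusted p of 0.05. At an unadjusted p under 0.05, 50 of the 77 were lower, where 7.67% of all tested genes were lower, and 0 were higher, where 8.98% of all tested genes were. The number of the 77 with such a p was 16 without the first WTC11 control, 27 without the second, 17 with the length trend described below removed and 33 with DESeq2. Without library scaling, 1 of the 77 genes and 2482 of all 14216 tested genes had such a p. With TMM scaling, 2366 of 14216 genes had such a p. limma voom called no gene, and DESeq2 called 246 genes, none of them ribosomal protein genes. The smallest adjusted p among the 77 in edgeR was 0.171, and no gene among them is called changed.

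RPS24, a small subunit protein and Diamond-Blackfan anaemia gene with a run of 14 pyrimidines above, was the gene with that smallest p. Its CPM was 232 and 207 in the WTC11 controls and 161, 148 and 135 in the libraries labelled KIF3B-/-. The WA09 controls had 194 and 195 CPM and the KIF3A-/- library 213. The libraries labelled KIF3B-/- were the 3 lowest of all 8, and the log2 fold change against the WTC11 controls was -0.57 ± 0.12 (SE; edgeR adjusted p = 0.171). In raw counts RPS24 had 506 and 457 in these controls against 422, 340 and 376, again without overlap, with a log2 ratio of the means of -0.34. RPS24 was chosen by p in this comparison. In raw counts, 37 of the 77 genes and 6.49% of tested genes were lower without overlap.

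RPL27 of the large subunit had 306 and 295 CPM in the WTC11 controls and 233, 235 and 202 CPM in the libraries labelled KIF3B-/-. Its log2 fold change was -0.43 ± 0.11, and its raw counts, 667 and 652 against 610, 541 and 563, did not overlap either. RPL27 too was chosen by p, and the raw-count share just given holds for it as well. Next by p came RPS9, which lines the mRNA entry channel, RPL23, RPL32, RPL34, RPS21 and RPS14. Their log2 fold changes were -0.43 ± 0.12, -0.49 ± 0.13, -0.46 ± 0.13, -0.46 ± 0.13, -0.51 ± 0.15 and -0.36 ± 0.10, in this order, and their adjusted p in edgeR ran from 0.175 to 0.179. In CPM, each of the 6, which were chosen by p in this comparison, was lower in all 3 libraries labelled KIF3B-/- than in both controls. The same held for 68 of the 77 genes and 18% of tested genes.

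The stalk is the flexible arm of the large subunit that recruits elongation factors: RPLP0 anchors it and RPLP1 and RPLP2 extend from it. RPLP0 had 255 and 263 CPM in the WTC11 controls against 216, 240.2 and 193, a log2 fold change of -0.26 ± 0.12. RPLP1 had 227 and 232 CPM against 178, 196 and 166, or -0.35 ± 0.12. RPLP2 had 203 and 207 CPM against 163, 160.3 and 136, or -0.42 ± 0.13. None of the 3 overlapped between groups in CPM, where 68 of the 77 genes and 18% of tested genes were lower without overlap. The RPLP0 counts, 557 and 580 against 565, 553 and 537, did overlap.

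RPL5 and RPL11 bind 5S ribosomal RNA, and outside the ribosome the same complex holds MDM2 and so spares p53. RPL5 had 403 and 387 CPM in the WTC11 controls against 327, 340.1 and 280.3, with a log2 fold change of -0.32 ± 0.11. RPL11 had 241 and 259 CPM against 201, 204 and 164, or -0.40 ± 0.13. Both were lower in every library labelled KIF3B-/-, as were 68 of the 77 genes and 18% of tested genes. RPS19 had 338 and 343 CPM against 261, 309 and 246 (-0.33 ± 0.11). RPSA, the laminin receptor of the small subunit and the gene with 74 pseudogene entries, had 73.8 and 74.3 CPM against 60.7, 63.9 and 55.7 (-0.30 ± 0.19). RPS6, the substrate of S6 kinase, was at -0.26 ± 0.10 and RPL3, near the peptidyl transferase centre, at -0.16 ± 0.095. RPL8 and RPL15, the other genes of highest CPM, were at -0.27 ± 0.10 and -0.26 ± 0.10.

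RPS28 and RPL7 were the genes with a log2 fold change above 0, and both rest on few counts. RPS28 was at 1.37 ± 0.83 from the 4 to 21 counts given above. RPL7 had 29 and 28 counts in the WTC11 controls and 44, 20 and 49 in the libraries labelled KIF3B-/-, which lie on both sides of the controls, and a log2 fold change of 0.15 ± 0.47. Without the third library labelled KIF3B-/-, the RPL7 value was -0.023. RPL39, which lines the exit tunnel, had the lowest value, -0.66 ± 0.41, from 42 and 35 counts against 29, 29 and 27. Among the 70 genes with a mean of at least 50 counts, all were below 0, from -0.62 to -0.038, with standard errors of 0.095 to 0.308. The 7 genes with fewer counts had standard errors of 0.351 to 0.825, so that a difference of the size of the median was not detectable in them.

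**Figure D3:**
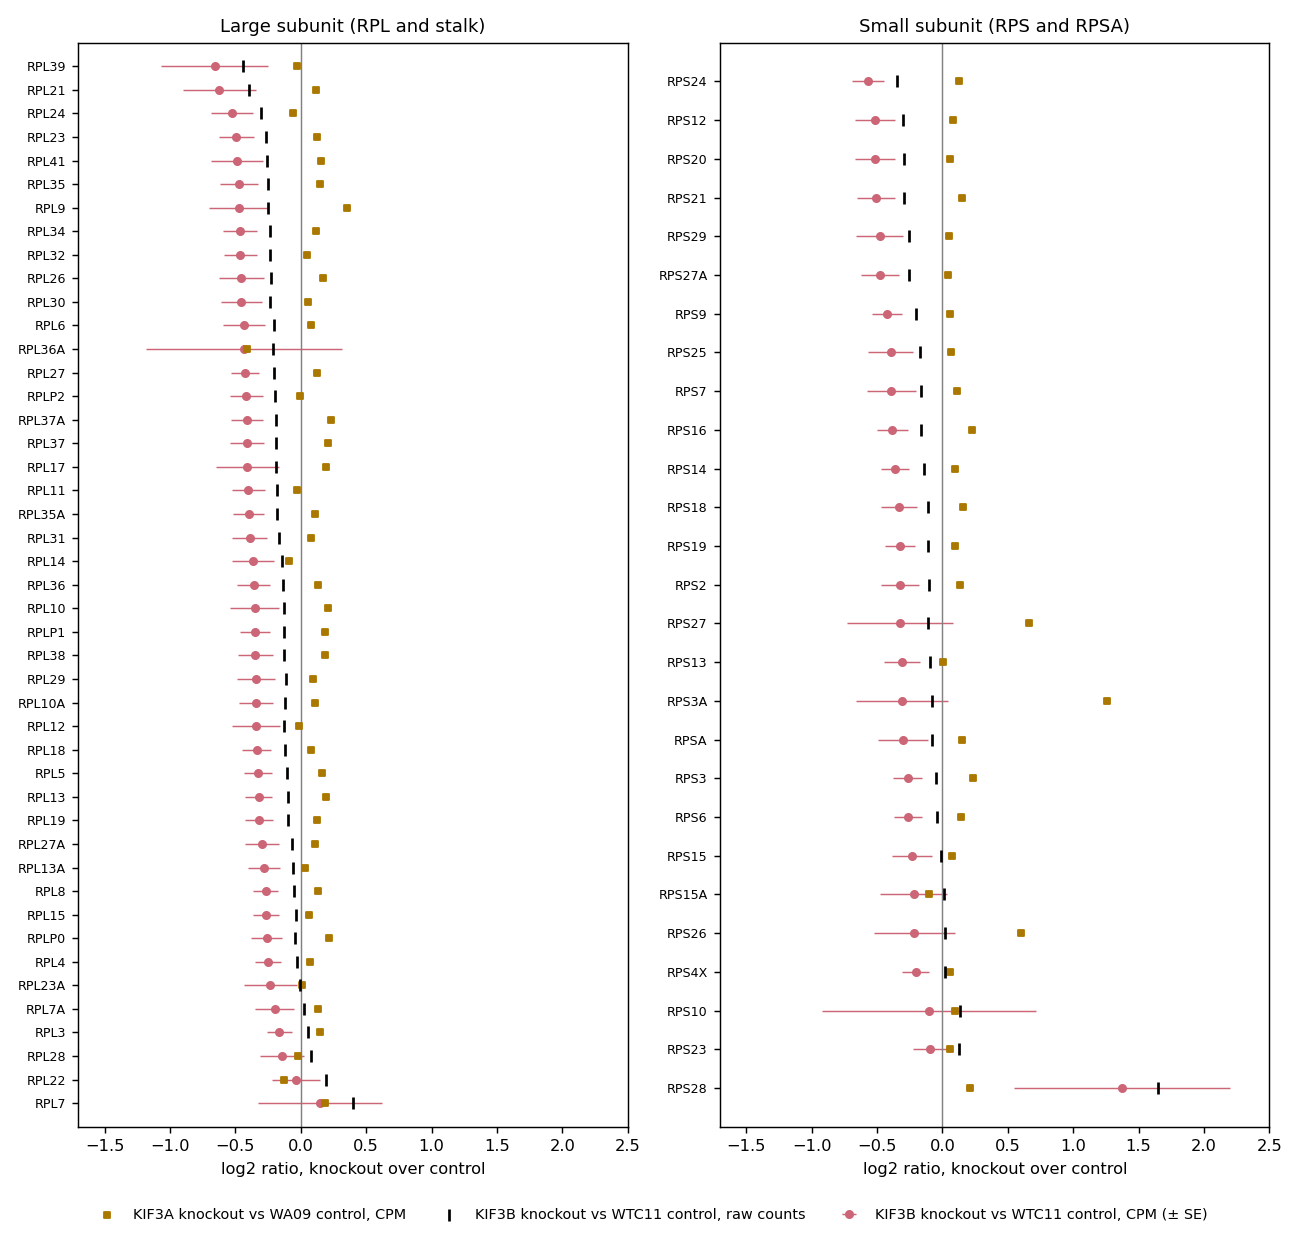
Circles with bars are the log2 fold change ± SE of 72 of the genes in CPM, libraries labelled KIF3B-/- (3) over WTC11 controls (2); black ticks are the log2 ratio of mean raw counts in the same comparison, and squares the CPM log2 fold change of the KIF3A-/- library over the WA09 controls. Nearly all circles lie left of 0 with the ticks between them and 0, and most squares lie right of 0.

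Without scaling by library total, all genes moved up, since the log2 ratio of the mean totals was 0.26. The median log2 fold change was then 0.25 over all tested genes, 31.4% of which were below 0, and -0.13 over the 77 genes, of which 66 were below 0. The 77 genes lay 0.38 below all tested genes on the log2 scale, both in raw counts and in CPM. Scaling shifts every gene of a library alike, so this gap could hardly change and is not a second result. In raw counts, every library labelled KIF3B-/- was below both controls in 37 of the 77 genes, against 6.49% of tested genes. Every one was above both in RPL3 and RPS28, against 26.1% of tested genes. RPL3 had 873 and 884 counts in the controls and 911, 889 and 941 in the libraries labelled KIF3B-/-, where its CPM was 400.1 and 400.6 against 348, 386 and 338. It was thus higher in counts and lower in CPM in all 3 libraries.

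**Figure D4:**
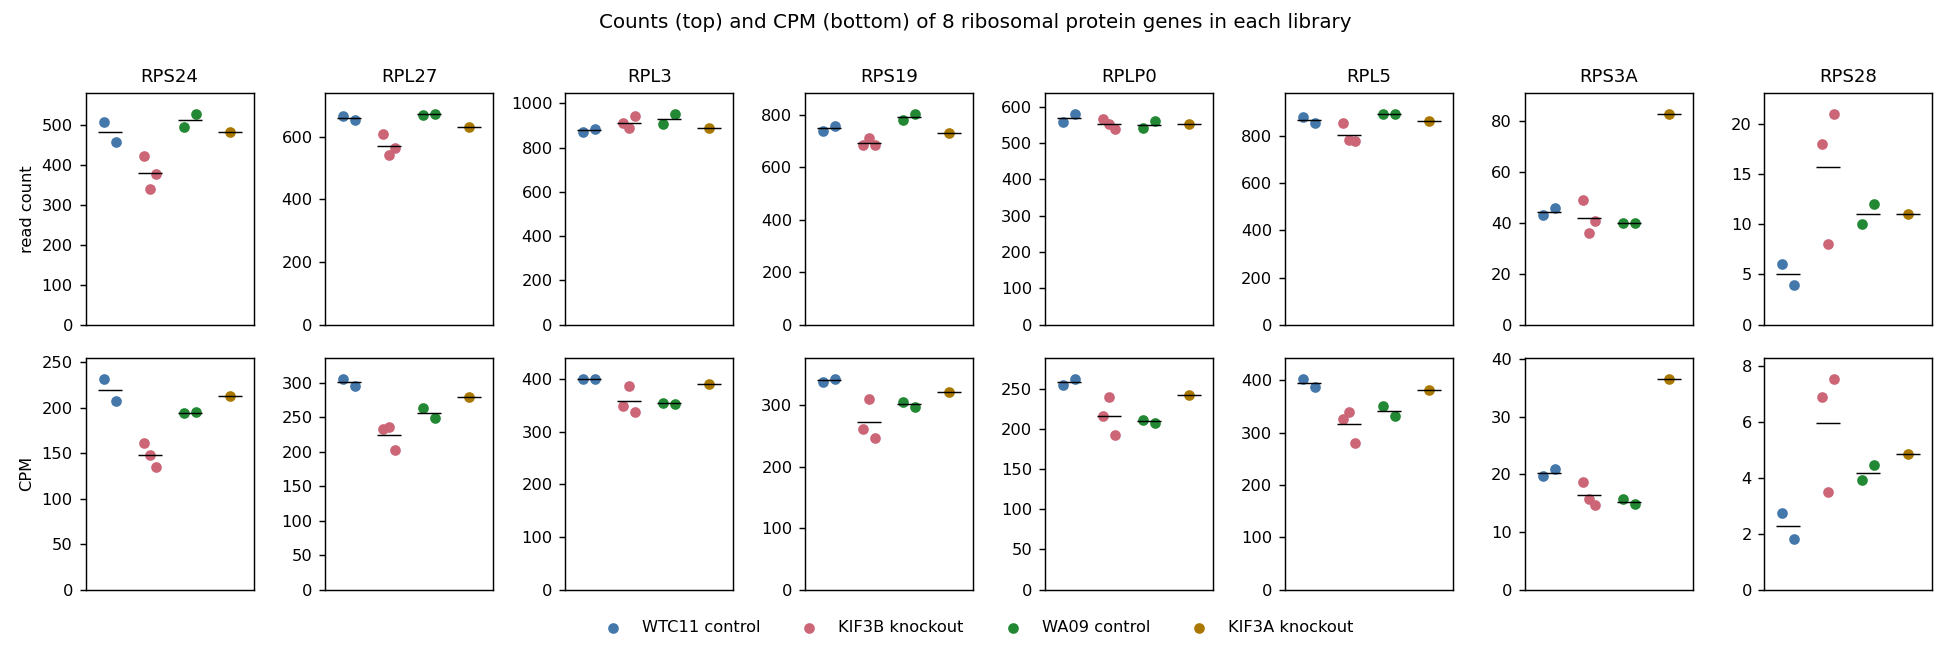
Counts (top row) and CPM (bottom row) of 8 genes in each library, each axis from 0, with a line at the group mean. RPS24 and RPL27 are lower in the libraries labelled KIF3B-/- on both scales, RPL3 and RPLP0 mostly in CPM, RPS3A stands out in the KIF3A-/- library, and RPS28 has at most 21 counts.

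Within the guides, which divide the same WTC11 libraries, the direction was the same. For guide 1, the log2 ratio of mean CPM, 2 libraries labelled KIF3B-/- over 1 control, had a median of -0.29 and was below 0 in 76 genes. For guide 2, with 1 library on each side, the median was -0.48 and 72 genes were below 0. Set against the 2 WA09 controls, whose totals were closer to theirs, the libraries labelled KIF3B-/- had a median log2 CPM ratio of -0.11, with 55 of the 77 genes below 0. Line and genotype cannot be told apart in that last contrast. For these contrasts no share over all tested genes is given.

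The ribosomal protein genes are short, and short transcripts as a whole had lower CPM in the libraries labelled KIF3B-/-. The median coding length of the 77 genes was 681.5 bases (359 to 1526), against 1884.5 bases over all tested genes that have one. Across the 13022 tested genes with a coding length, Spearman's rho between that length and the log2 fold change was 0.28, and it was -0.056 in the KIF3A-/- comparison, as descriptions of genes that share libraries. Within the 77 genes it was 0.53 in the comparison of the libraries labelled KIF3B-/-. With the trend on the longest transcript removed, the median of the 77 genes was -0.13 and 55 were below 0. With the trend on the median coding length removed, an alternative chosen after seeing the data, the median was -0.24 and 73 were below 0. Under the first of these, 22 genes were above 0, among them RPL8, RPS6, RPL5 and RPLP2 at 0.12, 0.060, 0.030 and 0.0092.

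**Figure D5:**
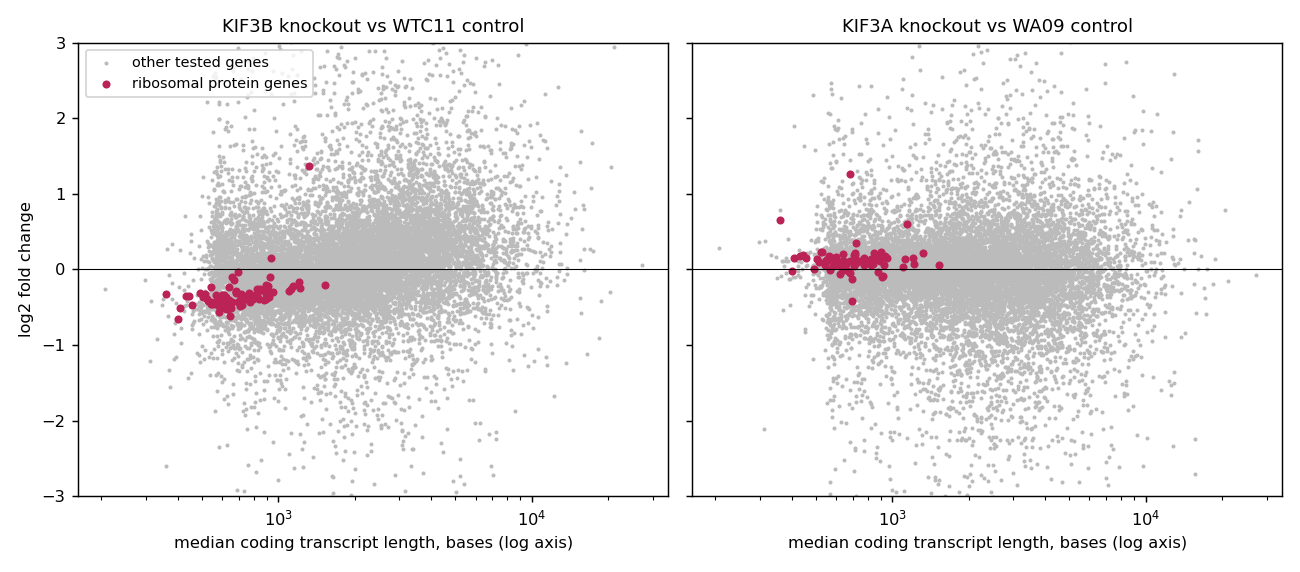
Each point is a tested gene, with its median coding transcript length in bases on a log axis and its log2 fold change within ±3 (315 and 416 other genes lie outside); ribosomal protein genes are in red. In the comparison of the libraries labelled KIF3B-/- with WTC11 controls the short genes, the red ones among them, lie mostly below 0, and in the comparison of the KIF3A-/- library with WA09 controls the red points lie slightly above 0.

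In WA09 the single KIF3A-/- library had slightly higher CPM of most ribosomal protein genes than its controls. The log2 fold change was above 0 in 66 of the 77 genes, where 48% of tested genes were above 0, and its median was 0.11, against -0.015 over all tested genes. The library was above both controls in 64 genes, against 33.8% of tested genes, and below both in RPL14, RPL24 and RPS15A, against 33%. edgeR called 0 of the 77 genes and 0% of all genes, with every adjusted p of the 77 at 1. At an unadjusted p under 0.05 there were 527 of 14216 genes, and 1 of the 77 was higher (0 without the second WA09 control), where 1.54% of tested genes were. limma voom also called no gene, and DESeq2 called 1 gene, which was not a ribosomal protein gene. The lone library was assumed to vary like the other groups.

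RPS3A, a small subunit protein, was the gene of that p. It had 40 and 40 counts in the WA09 controls, 83 in the KIF3A-/- library, and 36 to 49 in the 5 WTC11 libraries. In CPM these were 15.7 and 14.8 against 36.6, and 14.7 to 20.8 in the WTC11 libraries, so that the KIF3A-/- library stood above all 7 others. With a log2 fold change of 1.26 ± 0.45 it had an adjusted p of 1 in edgeR. RPS3A has 38 pseudogene entries. The others with the smallest p were RPS3, which shapes the mRNA entry channel, at 0.23 ± 0.15, RPS26, at the mRNA exit, at 0.60 ± 0.41, and RPL13 at 0.19 ± 0.14. RPS3 had 310.4 and 309 CPM in the controls and 364 in the KIF3A-/- library. RPS26 had 19.6 and 25.2 CPM against 34.0, close to the 31.7 and 36.2 of the WTC11 controls.

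Without scaling, all genes moved down, since the log2 ratio of the KIF3A-/- total to the mean of its controls was -0.21. The median log2 fold change was then -0.23 over all tested genes, 72.0% of which were below 0, and -0.098 over the 77 genes, of which 67 were below 0. The 77 genes lay 0.13 above all tested genes both in raw counts and in CPM, a gap that scaling by library can hardly change. The library was below both controls in 57 genes, against 51.6% of tested genes, and above both in RPL9, RPS26, RPS27 and RPS3A, against 15.7%. RPL13, for example, had 639 and 693 counts in the controls and 658 in the KIF3A-/- library, between the 2.

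The KIF3A and KIF3B effects were compared in 1 interaction contrast, KIF3A effect minus KIF3B effect. The median of the 77 genes was 0.48 and 75 were above 0, where 48.1% of all tested genes were above 0 and the median was -0.040. edgeR called 0 of the 77 genes and 0% of all genes, with 1322 genes at an unadjusted p under 0.05. DESeq2 called 17 genes, none among the 77, and limma voom 0. RPS24 had the smallest adjusted p of the 77, 0.515 in edgeR, with a difference of 0.70 ± 0.21. RPL37A (0.64 ± 0.20), RPS16 (0.61 ± 0.20) and RPL27 (0.55 ± 0.18) followed. With no scaling of libraries, the median difference was 0.053 over the 77 genes and -0.48 over all tested genes. The gap was 0.53 beside one of 0.52 in CPM, and scaling by library can hardly change it. The 2 knockouts differ in gene, line and number of libraries, which cannot be told apart.

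Between the controls of the 2 lines, CPM of nearly all ribosomal protein genes was higher in WTC11. The log2 fold change, WTC11 over WA09, was above 0 in 76 of the 77 genes, where 49.4% of tested genes were above, with a median of 0.24 against -0.0065 over all tested genes. Both WTC11 controls were above both WA09 controls in 70 genes, against 23.6% of tested genes. Several gene lists described below were also higher in WTC11. The median was 0.25 over 38 initiation and elongation factors (32 above 0). It was 0.26 over 74 genes of ribosome assembly and RNA polymerase I (58 above 0). Over 28 other mRNAs with a TOP tract it was 0.23, and over 77 mitochondrial ribosomal protein genes 0.12. edgeR called 4 genes (0.0281%), none of them ribosomal protein genes. The smallest p among the 77 was that of RPS16, whose tail reaches the tRNA in the decoding centre, with 200.3 and 217 CPM in the WTC11 controls against 157 and 155 in the WA09 controls. Its log2 fold change was 0.42 ± 0.13 (edgeR adjusted p = 0.197), and its counts, 437 and 478 against 399 and 418, did not overlap either. RPL38, known from skeletal patterning defects in mutant mice, was at 0.46 ± 0.15, RPL18 at 0.37 ± 0.12 and RPLP1 at 0.33 ± 0.13. Without scaling, the median was -0.018 over the 77 genes, with 45 below 0, and -0.26 over all tested genes, with 69.5% below 0. The gap was 0.25, as in CPM, and scaling by library can hardly change it. In raw counts, both WTC11 controls were below both WA09 controls in 21 genes, against 39.4% of tested genes, and above both in 9, against 9.88%, while the log2 ratio of the mean totals was -0.23. This comparison shares the WTC11 controls with that of the libraries labelled KIF3B-/- and the WA09 controls with that of the KIF3A-/- library, so the 3 sets of values are not independent.

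With both lines pooled, 4 knockout against 4 control libraries and line as a term, the median log2 fold change of the 77 genes was -0.18 and 72 were below 0, where 48.8% of 13238 tested genes were below 0. edgeR called 0 of the 77 and 0% of all genes (1137 at an unadjusted p under 0.05; DESeq2 37, limma voom 0). RPL24, which reaches across to the small subunit, had the smallest p, with a log2 fold change of -0.36 ± 0.15 (edgeR adjusted p = 0.565). It had 132 and 124 CPM in the WTC11 controls against 98.2, 89.9 and 78.3. In the WA09 controls it had 109 and 111 CPM against 105, a log2 fold change of -0.063 ± 0.22 from 1 KIF3A-/- library. Choosing RPL24 by the pooled p favours the same direction in both lines. The KIF3A-/- library was below both controls in 3 of the 77 genes, against 33% of tested genes. RPLP2 and RPL11 were at -0.27 ± 0.12 and -0.26 ± 0.12. Without the KIF3A-/- library the median was -0.35, so the pooled value joins 2 comparisons of opposite sign.

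Related genes were counted in the same fits. Among the other proteins of the cytosolic ribosome, FAU, which is made as a ubiquitin-like fusion, RACK1 and RPL36AL had log2 fold changes of -0.34 ± 0.14, -0.18 ± 0.10 and -0.40 ± 0.16 in the libraries labelled KIF3B-/-. Of the paralogues of ribosomal protein genes, 5 of 7 were tested and all 5 were below 0, with a median of -0.63. RPS27L, a p53 target, had 355 and 417 counts in the WTC11 controls against 281, 319 and 278 (-0.61 ± 0.16), and RPL22L1, which compensates for RPL22, was at -0.63 ± 0.18. RPL22 itself was at -0.038 ± 0.18. RPL10L, a paralogue of male germ cells, had 0 counts in every library.

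Of the other mRNAs with a TOP tract, 23 of 28 were below 0, with a median of -0.20. The 2 most abundant, EEF2, the translocation factor, and SLC25A6, a mitochondrial ADP/ATP carrier, were at 0.068 ± 0.10 and -0.15 ± 0.099, and the 2 with the smallest p, COX7C and PFDN5, at -0.48 ± 0.11 and -0.56 ± 0.15. The median was -0.35 over 13 non-coding snoRNA host genes (11 below 0) and -0.37 over 77 mitochondrial ribosomal protein genes (69 below 0). MRPL11 among the latter, whose ribosome is that of the mitochondrion, was at -0.49 ± 0.11. In contrast, 38 initiation and elongation factors had a median of -0.016 (20 below 0). The 74 genes of ribosome assembly and RNA polymerase I had one of 0.014 (37 below 0), among them NCL at -0.11 ± 0.075. All these medians still hold the length trend described above, and its part in the differences between lists was not tested. The 22 tested pseudogene entries had a median of -0.35, with 19 below 0. In this comparison edgeR called 0 genes of each of these lists at an adjusted p of 0.05, as it called none in the whole table. Between the controls of the 2 lines, 2 of the 4 genes it called were translation regulators, LARP1 and EIF5, higher in WTC11 by 0.98 ± 0.12 and 1.05 ± 0.12 (edgeR adjusted p = 0.0499 for both). LARP1 had 268 and 302 CPM in the WTC11 controls against 141 and 148 in the WA09 controls. Neither call held with RLE factors or limma voom, where edgeR and voom called 0 genes. In the KIF3A-/- library the medians of the same lists were 0.019 for the pseudogene entries and 0.068 to 0.18 for the others.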

How the data were processed

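For the 8 SMART-Seq and Nextera XT libraries the authors deposited raw read counts of each gene. The submitters' processing notes name STAR and hg38. How genes were counted, on which annotation and with what treatment of duplicate and multiply mapping reads is not given in the sources used here. Groups came from the labels. The 77 genes, the gene lists and the rule for named genes (smallest p in each comparison, opposite sign, highest and lowest CPM, and a set of known genes) were chosen with earlier results of these data known; RPL9, RPL14, RPL22, RPS15A and RPS27 were named after their values were seen. edgeR 4.0.16 in R 4.3.3 (quasi-likelihood F test, robust, TMM, filterByExpr, Benjamini-Hochberg over all tested genes, threshold 0.05) was fitted to 14216 genes with a mean per group, and to 13238 genes with line as a term for the pooled comparison. CPM use the totals of tested genes with TMM scaling, and gene values are log2 fold changes ± SE. Positions and lengths came from GENCODE release 29, matched for 58039 entries. Entries with no gene name (20993) stayed in the totals. Alternatives were limma 3.58.1 voom, DESeq2 1.42.0, other scalings and filters, removal of the length trend, a block for the guide and leaving out each library. The edgeR steps were tested on simulated data. Single values of a few genes are not reported here.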

Additional observations from a re-analysis of the deposited data

Results flagged for a closer look

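The summed CPM of the 77 ribosomal protein genes moved in opposite directions in the 2 lines. All 3 libraries labelled KIF3B-/- were below both WTC11 controls, with a log2 ratio of the group means of -0.34. The KIF3A-/- library was above both WA09 controls, with a log2 ratio of 0.11. This difference between the sums was not tested, and the KIF3A-/- side is 1 library. Summed raw counts were lower in the knockouts of both lines, with log2 ratios of -0.12 and -0.098, where the library totals had log2 ratios of 0.26 and -0.21.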

How the results depend on the processing

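The median log2 fold change of the 77 genes moved by more than the spread between replicates under some settings. Without library scaling it was -0.13 for the libraries labelled KIF3B-/-, -0.098 for KIF3A-/-, 0.053 for the difference and -0.018 for the lines. That setting shifted all tested genes, to medians of 0.25, -0.23, -0.48 and -0.26. The gap of the 77 genes to them was -0.38, 0.13, 0.53 and 0.25, nearly fixed in advance because scaling shifts all genes of a library alike. With the length trend removed, the median of the 77 genes was -0.13 for KIF3B, 0.25 for the difference and -0.044 in the pooled comparison. With the trend on the median coding length removed, the median was -0.24 for KIF3B and 0.35 for the difference. Leaving out 1 library gave 0.41 to 0.52 for the difference and -0.35 (without the KIF3A-/- library) to -0.12 in the pooled comparison. The cause of the other shifts was not tested.

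Counts of genes past the threshold moved more. For KIF3B, edgeR called 0 and calls were 70 without scaling, 676 without the low-count filter (RPS24 the 1 ribosomal protein gene among them), 246 with DESeq2 and 0 to 5 with 1 library left out (5 without WTC11 control replicate 2). For KIF3A, 2 genes passed without the filter, 1 with DESeq2 and 0 to 1 with 1 library left out; for the difference, 160, 17 and 0 to 1. For the lines, 4 in edgeR became 0 with RLE factors, without scaling, with TMM computed without these genes and with voom, 525 without the filter, 219 with DESeq2 and 0 to 1 with 1 library left out. Pooled calls were 154 without the filter and 37 with DESeq2.

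Over the 77 genes, those below 0 for KIF3A went from 11 to 67 without scaling, and those above 0 for KIF3B from 2 to 22 with the length trend removed. Of the values tracked for the genes chosen by rule, these changed sign. Without scaling, KIF3A values became -0.017 for RPL13, and KIF3B values 0.057 for RPL3 and 0.14 for RPS10. With the length trend removed, KIF3B values became 0.0092 for RPLP2 (pooled 0.011), 0.12 for RPL8, 0.060 for RPS6, 0.030 for RPL5 and 0.20 for RPS10. Leaving out 1 library gave -0.023 (KIF3B-/- replicate 3) to 0.40 (replicate 2) for RPL7 and -0.30 (replicate 1) to 0.081 (replicate 2) for RPS10.

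Same-guide deviations correlated at 0.11, -0.11 and -0.016. The deviations of the 2 controls mirror each other, so these values cannot show whether guide numbers pair the libraries. With guide as a replicate block the KIF3B median was -0.37, with 75 genes below 0 and 0 called.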
